A study of Mus musculus with 4 samples.

Results

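The genes described here encode 10 cytokine receptor subunits, chosen by symbol from the 25509 genes of the deposited table: Crlf2 and Il7r, which form the receptor for TSLP, the common gamma chain Il2rg, and the chains Il2ra, Il2rb, Il4ra, Il9r, Il21r, Il13ra1 and Il15ra. Crlf2 was already known to be among the genes with higher RNA in Batf3-/- cells when the family was picked, and the other chains were set beside it. The values of the members in the comparison of Batf3-/- with WT are therefore given as a description, without a test. All 10 symbols matched 1 row each, 9 had enough counts to enter the fit over all genes, and Il13ra1 did not.

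RNA was sequenced from 2 libraries of Batf3-/- mouse T cells and 2 libraries of WT mouse T cells. Batf3 encodes an AP-1 family transcription factor, and the labels do not say which part of the gene the Batf3-/- allele lacks, how old the mice were or how many were used. Naive CD4+ cells (CD25-, CD62L high, CD44 low) were sorted from spleen, and cells of both genotypes then received the same agents for 72 h: antibodies to CD3 and CD28, TGFb, IL-4 and the TNF family cytokine TL1A. This is the TH9 condition with TL1A, in which helper T cells make interleukin 9. The comparison asks which transcripts differ in such cultures when Batf3 is lost.

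TSLP, a cytokine of epithelial cells, binds the chain encoded by Crlf2, which then recruits the interleukin 7 receptor alpha chain encoded by Il7r. Il7r also pairs with the common gamma chain, encoded by Il2rg, to bind interleukin 7, and the same gamma chain serves the receptors for interleukins 2, 4, 9, 15 and 21. These receptors have no enzyme of their own and signal through JAK kinases and STAT factors. Il2ra and Il15ra encode chains with sushi domains that capture the ligand, while the other members belong to the type I cytokine receptor fold.

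Total counts were 31098059 and 15624874 in Batf3-/- replicates 1 and 2, and 23754946 and 27285811 in WT replicates 1 and 2. Batf3 had 17 and 8 counts in the Batf3-/- libraries, against 1439 and 1661 in the WT libraries, so all 4 carried the level that their label implies. Xist, the RNA of the inactive X chromosome, split the replicate numbers: it stood at 0.0944 and 144 CPM (counts scaled to library size, TMM-normalized) in Batf3-/- replicates 1 and 2, and at 0.214 and 166 CPM in WT replicates 1 and 2. The libraries high in Xist also held RNA of Y-linked genes: Ddx3y stood at 73.5 and 56.9 CPM in Batf3-/- replicates 1 and 2, and at 90.9 and 44.8 CPM in WT replicates 1 and 2. Log2 ratios within each replicate number are therefore given for the tested members and the named pathway genes that have a fitted fold change. WT replicate 1 stood slightly apart, with correlations of its log2 CPM over tested genes of 0.971 to 0.976 with the other libraries, against 0.981 to 0.982 among those 3. T cell markers were abundant in every library (summed over 7 of 10 listed genes found, 1884 and 1902 CPM in Batf3-/- and 2071 and 1760 CPM in WT cells). Markers of cells that can carry the TSLP receptor were scarce, and 6 of 7 mast cell and basophil markers were at 0 in all libraries. The remaining one, Kit, stood at 1.73 and 4.59 CPM in Batf3-/- and at 4.37 and 2.22 CPM in WT cells. The 12 myeloid and dendritic cell markers summed to 8.04 and 6.99 CPM in Batf3-/- and 9.69 and 8.15 CPM in WT cells. Most of that was Zbtb46 and Flt3, with Lyz2, Fcer1g and Tyrobp at 0. The 6 B cell markers summed to 10.4 and 12.3 CPM in Batf3-/- and 13.2 and 10.1 CPM in WT cells, nearly all of it Cd79b, with Ms4a1 at 0. The 7 natural killer and innate lymphoid markers summed to 1.61 and 1.55 CPM in Batf3-/- and 1.80 and 2.30 CPM in WT cells, most of it Il1rl1, and the 2 CD8 markers to 7.43 and 7.31 CPM in Batf3-/- and 9.09 and 8.49 CPM in WT cells. In bulk RNA, fewer cells of a type and less RNA per cell cannot be told apart.

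Set per length of transcript, the chains of the cultures spanned about 4 orders of magnitude. Per kb of the longest annotated transcript, Il2ra led with 739 and 692 CPM per kb in Batf3-/- cells and 656 and 872 CPM per kb in WT cells, which placed it at rank 108 of 25251 genes. Il2rb followed with 263 and 293 CPM per kb in Batf3-/- cells and 206 and 271 CPM per kb in WT cells. Il2rg stood at 221 and 218 CPM per kb in Batf3-/- cells and at 197 and 231 CPM per kb in WT cells. The ranges of Il2rb and Il2rg did not overlap in Batf3-/- cells and overlapped in WT cells.

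Il21r and Il4ra came next, with 121 and 138 CPM per kb for Il21r in Batf3-/- cells and 114 and 122 in WT cells. Il4ra had 95.6 and 105 CPM per kb in Batf3-/- cells and 77.3 and 96.4 in WT cells. The 2 genes are neighbours on chromosome 7, with 23.955 kb and no annotated gene between them. Il2ra and Il15ra are likewise adjacent on chromosome 2, 12.097 kb apart, but lay far apart in level, Il2ra highest and Il15ra eighth of the 10: Il15ra had 1.41 and 1.51 CPM per kb in Batf3-/- cells and 1.31 and 1.37 in WT cells.

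The remaining chains were scarce. Il9r had 0.393 and 0.216 CPM per kb in Batf3-/- cells and 0.153 and 0.0976 in WT cells, and Il13ra1 had 0.0593 and 0.105 in Batf3-/- cells and 0.0577 and 0.0884 in WT cells. Crlf2 and Il7r lay between these and the abundant chains. They were also the only neighbours whose order differed between libraries: Crlf2 was the higher of the pair in both Batf3-/- libraries and in WT replicate 2, and Il7r in WT replicate 1. By each other length used, 4 members changed place, not the same 4 each time, as given under the processing alternatives.

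**Figure D1:**
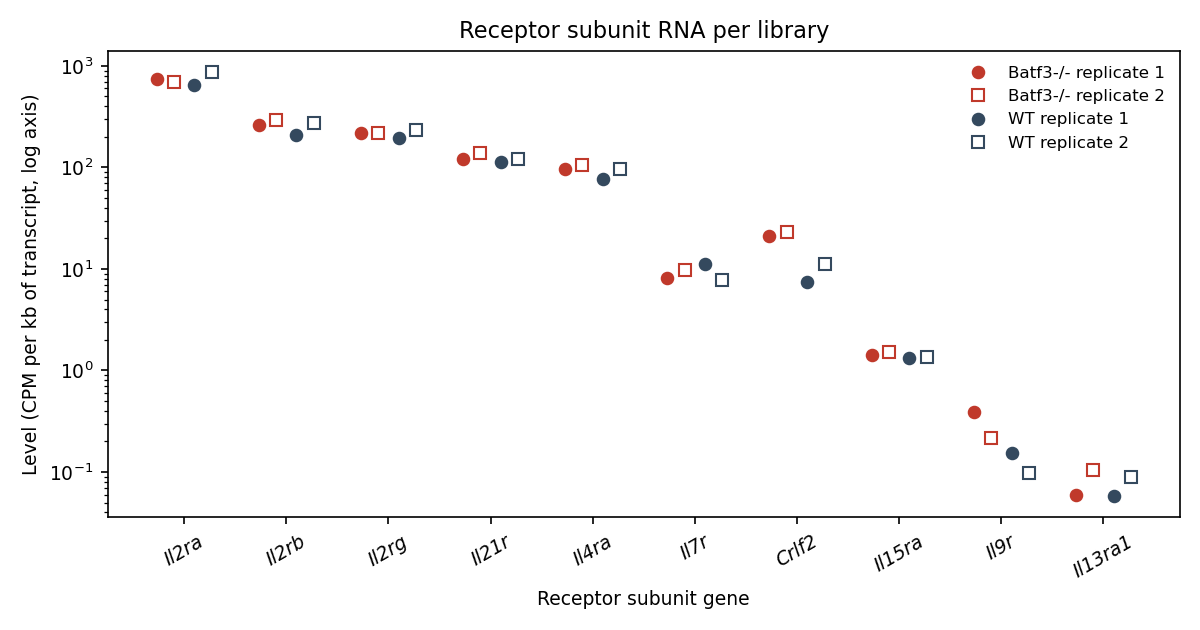
RNA level of each receptor subunit gene in CPM per kb of the longest annotated transcript (log axis) for each of the 4 libraries, with genes ordered by their WT mean; points are single libraries. Il2ra sits highest, at 656 to 872, and Il13ra1 lowest. The Batf3-/- points of Crlf2 (21.3 and 23.4) stand clear of its WT points (7.44 and 11.1) at a level well above the detection floor. Those of Il9r, at low counts, and of Il15ra, by 1.03-fold at the nearest pair, also lie above their WT points.

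Crlf2 (ENSMUSG00000033467.12, GRCm38 chromosome 5, 109554709 to 109558993, minus strand, protein coding) encodes the TSLP-binding chain. It had 951 and 508 counts in the Batf3-/- libraries, against 244 and 427 counts in the WT libraries. These are 29.9 and 32.8 CPM in Batf3-/- cells and 10.5 and 15.6 CPM in WT cells. Both Batf3-/- libraries lay above both WT libraries, and the spread was wider in WT, where the libraries differed 1.49-fold, than in Batf3-/- cells, where they differed 1.10-fold. The Batf3-/- mean was 31.4 ± 2.06 CPM and the WT mean 13.0 ± 3.61 CPM (SD, n = 2 each), a log2 fold change of 1.27 (SE 0.231). Over the 4 pairings of a Batf3-/- with a WT library the ratio ran from 1.92 to 3.14. Within replicate numbers 1 and 2 the log2 ratios were 1.51 and 1.08. Of 12135 tested genes, 65 had a higher log2 fold change than Crlf2, Il9r among them. Crlf2 was picked as higher in this contrast, so a high rank was built in and is only described.

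Il7r (ENSMUSG00000003882.4, chromosome 15, 9505788 to 9530176, minus strand), the alpha chain shared by the TSLP and interleukin 7 receptors, had no such difference. Its level was 28.9 and 34.5 CPM in Batf3-/- cells and 39.2 and 27.6 CPM in WT cells, so that both Batf3-/- libraries lay between the WT libraries. The log2 fold change was -0.08 (SE 0.218). The log2 ratio was -0.44 within replicate number 1 and 0.33 within replicate number 2, so its direction differed between the replicate numbers.

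The balance of both chains within a library does not depend on how libraries are scaled to each other. Crlf2 was picked as higher in Batf3-/- cells, however, so a higher ratio there was built in and is only described. The ratio is also not corrected for GC content, in which the chains differ, as given below. The counts of Crlf2 over those of Il7r came to 1.04 and 0.951 in Batf3-/- replicates 1 and 2, and to 0.267 and 0.565 in WT replicates 1 and 2. Per kb the ratio of levels was 2.61 and 2.40 in Batf3-/- cells and 0.672 and 1.42 in WT cells. By the longest transcript Crlf2 RNA exceeded Il7r RNA per kb in 3 of the 4 libraries, all but WT replicate 1. By the median transcript length it did so in the same libraries, narrowly in WT replicate 2 (11.8 against 10.9 CPM per kb). Per kb of coding sequence it did so in both Batf3-/- libraries (27.8 against 21.0 and 30.5 against 25.1 CPM per kb) and in neither WT library (9.71 against 28.5 and 14.5 against 20.0 CPM per kb). Against the abundant gamma chain, the level of Il7r per kb was 27.1 and 22.3 times lower in Batf3-/- cells and 17.8 and 29.7 times lower in WT cells.

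**Figure D2:**
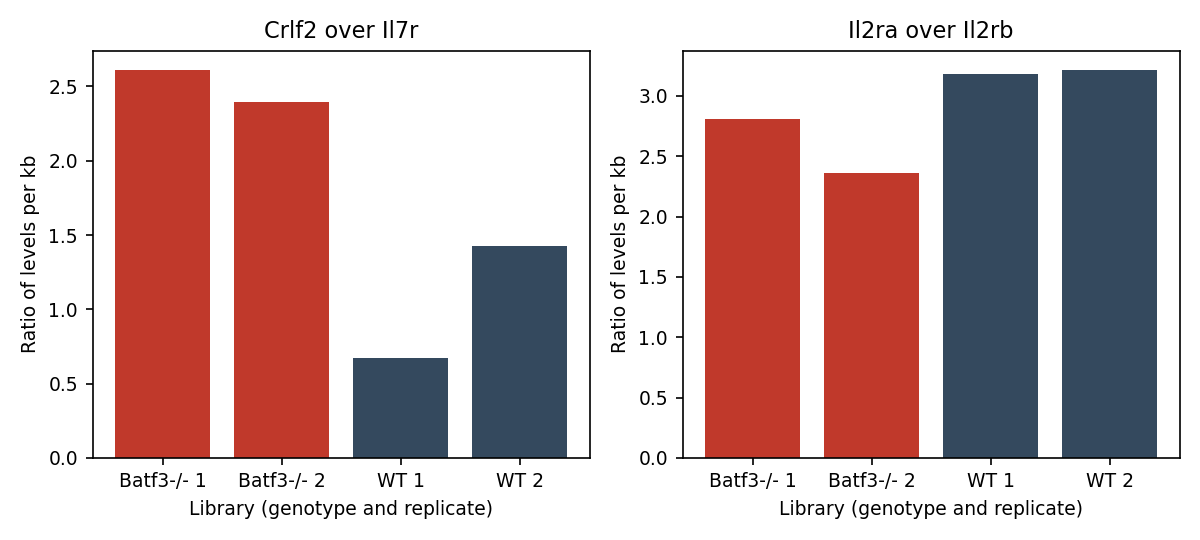
Ratio of levels per kb of the longest transcript within each library for Crlf2 over Il7r (left) and for Il2ra over Il2rb (right); bars are single libraries, Batf3-/- in red and WT in blue, on axes that start at 0. The Crlf2 over Il7r ratio is 2.61 and 2.40 in Batf3-/- cells against 0.672 and 1.42 in WT cells, while the Il2ra over Il2rb ratio is 2.81 and 2.36 in Batf3-/- cells against 3.18 and 3.21 in WT cells.

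The base composition of Crlf2 set it apart from its partner. The longest Crlf2 transcript is 65.6% G and C, against 40.5% for Il7r and 41.2% to 55.8% for the other 8 members. Tested genes of at least 60% GC, 494 in all, had a median log2 fold change of 0.36, against -0.02 for the 11611 tested genes below that, a bound chosen after the data were seen. Within replicate numbers 1 and 2 the median of the GC-rich genes was 0.53 and 0.26. With a correction for each library's trend on GC content the log2 fold change of Crlf2 was 0.73 in place of 1.27, and that of Il7r was 0.13 in place of -0.08.

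The DNA before the RefSeq starts of the 2 genes differed in the same direction. In the 250 bases before the RefSeq start (GRCm38.p6), Crlf2 has 71.6% GC and 24 CpG dinucleotides, and Il7r has 44.0% GC and 1 CpG. The Il7r window lies inside the gene span given above, because GENCODE adds a non-coding transcript that starts farther out than the RefSeq start. Of the Crlf2 window, only the 115 bases farthest from the start used lie beyond the longer RefSeq gene. Over 32851 such windows the medians were 52.4% and 6, and 92.7% of windows had a lower GC content than Crlf2. Among the other members, Il13ra1 came close to Crlf2, with 70.8% GC and 21 CpG, and Il4ra had 59.6% GC and 17 CpG. The motif GGGCGG was searched on both strands after the sequence was seen. It occurs at least once in 32.7% of all windows. Il13ra1 has 3 copies, Il4ra and Il21r have 1 each, and the windows of the remaining members have none. The Crlf2 window has 5 copies, some overlapping. The stretch of the Crlf2 window beyond the ends of both the GENCODE gene and the longer RefSeq gene (chr5:109559129-109559243, minus strand) is shown to make this composition visible, with GGGCGG in capitals, beside a 29-base stretch of the Il7r window (chr15:9530000-9530028, minus strand) with its only match to the STAT-type motif TTCNNNGAA in capitals.
Crlf2: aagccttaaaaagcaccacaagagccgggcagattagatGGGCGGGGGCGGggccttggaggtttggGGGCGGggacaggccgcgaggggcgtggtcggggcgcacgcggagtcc
Il7r: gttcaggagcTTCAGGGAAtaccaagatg

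Of the 9 members with a window before a RefSeq start, Il7r was the only 1 with a match to TTCNNNGAA, a motif found in 7.02% of all windows; the match lies within the GENCODE span of Il7r. The AP-1 type motif TGANTCA matched only in 1 of the 2 windows of Il15ra, 30 bases before the start, and in 6.75% of all windows. Both motifs read the same on either strand, and a match is a description of the letters only.

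The interleukin 2 receptor chains were close in both genotypes. Il2ra (chromosome 2, 11642807 to 11693193), the inducible alpha chain also called CD25, had 3259 and 3052 CPM in Batf3-/- cells and 2893 and 3846 CPM in WT cells. The Batf3-/- libraries lay between the WT libraries (log2 fold change -0.09, SE 0.213), with log2 ratios of 0.17 and -0.33 within replicate numbers 1 and 2. The cells had been sorted as CD25-negative before the 72 h of culture.

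Il2rb (chromosome 15, 78479256 to 78495271), the beta chain of the receptors for interleukins 2 and 15, had 1104 and 1229 CPM in Batf3-/- cells and 866 and 1138 CPM in WT cells. WT replicate 1 was the lowest library and the ranges overlapped (log2 fold change 0.22, SE 0.206; 0.35 and 0.11 within replicate numbers 1 and 2). Per kb, the ratio of Il2ra to Il2rb was 2.81 and 2.36 in Batf3-/- cells and 3.18 and 3.21 in WT cells. Il15ra (chromosome 2, 11705290 to 11734317), which presents interleukin 15, was low, with 104 and 54 counts in Batf3-/- and 71 and 87 counts in WT libraries. Its level was 3.27 and 3.49 CPM in Batf3-/- cells and 3.04 and 3.17 CPM in WT cells, without overlap but 1.03-fold apart at the nearest pair (log2 fold change 0.11, SE 0.324). The log2 ratios of Il15ra within replicate numbers 1 and 2 were 0.10 and 0.14.

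Il2rg (chromosome X, 101264378 to 101268255), the gamma chain that all the receptors named for it need, differed least. It had 369 and 364 CPM in Batf3-/- cells and 329 and 386 CPM in WT cells, so that the Batf3-/- libraries lay inside the WT range (log2 fold change 0.04, SE 0.191), with log2 ratios of 0.17 and -0.09 within replicate numbers 1 and 2. A same-strand gene model, Gm20489, overlaps it and was given 72.17 estimated counts in WT replicate 1 and 0 in the remaining 3. Il2rg itself had 7663.83 estimated counts in WT replicate 1, a value that is uncertain to that extent, and whole counts elsewhere. Annotated models also overlap Il2ra (Gm37881, same strand) and Il4ra (Gm44876, antisense), and these were not analysed here.

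Il4ra (chromosome 7, 125552120 to 125579474), which binds interleukin 4, the cytokine added to these cultures, had 503 and 554 CPM in Batf3-/- cells and 406 and 507 CPM in WT cells. The ranges overlapped narrowly, the lower Batf3-/- library being 0.992 times the higher WT library (log2 fold change 0.21, SE 0.197; 0.31 and 0.13 within replicate numbers 1 and 2). Its alternative partner to the gamma chain, Il13ra1 (chromosome X, 36112110 to 36171259), had 7 and 6 counts in Batf3-/- libraries and 5 and 9 counts in WT libraries, or 0.220 and 0.388 CPM in Batf3-/- and 0.214 and 0.328 CPM in WT cells. The floor of 3 counts lay at 0.0944 and 0.194 CPM in Batf3-/- and at 0.129 and 0.109 CPM in WT libraries, so this chain was barely above detection and no difference could be read at this depth. Il21r (chromosome 7, 125603429 to 125633570), the interleukin 21 binding chain, had 302 and 344 CPM in Batf3-/- cells and 285 and 305 CPM in WT cells (log2 fold change 0.13, SE 0.190), and log2 ratios of 0.08 and 0.17 within replicate numbers 1 and 2.

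Il9r (chromosome 11, 32187541 to 32200279), which binds the cytokine that defines TH9 cells, was nearly silent. It had 56 and 15 counts in Batf3-/- libraries and 16 and 12 counts in WT libraries. Its level was 1.76 and 0.970 CPM in Batf3-/- cells and 0.686 and 0.437 CPM in WT cells. The libraries did not overlap, and the Batf3-/- libraries differed 1.82-fold from each other. The log2 fold change of 1.38 had an SE of 0.527, and within replicate numbers 1 and 2 the log2 ratios were 1.34 and 1.11. Without Batf3-/- replicate 1 it was 0.80.

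Of the 12135 genes in the fit, 0.132% had an adjusted p under 0.05 in edgeR's quasi-likelihood test, 0.0824% with higher and 0.0494% with lower RNA in Batf3-/- cells. Crlf2 was the 1 member among the higher genes and no member was among the lower ones, which is how the family came to be chosen, and the other 8 tested members were not. For Crlf2, Il9r and Il15ra both Batf3-/- libraries lay above both WT libraries, against 18.2% of all tested genes, and for no member did both lie below, against 15.6%; libraries of both genotypes were apart in either direction for 33.8% of all tested genes. The members were chosen on this contrast, so nothing is read from these shares. The 7 positive and 2 negative log2 fold changes had a median of 0.13, beside -0.01 for all tested genes. Apart from Crlf2 and Il9r, no tested member had a log2 fold change larger than 0.22 in size.

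**Figure D3:**
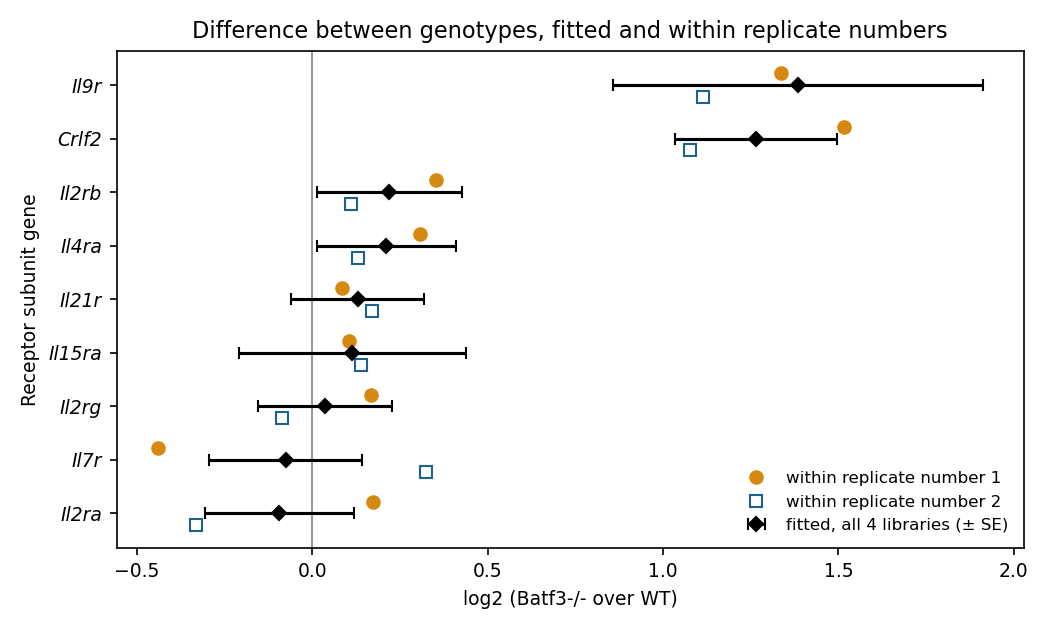
Log2 difference of Batf3-/- over WT for the 9 tested receptor subunit genes; diamonds give the fitted value from all 4 libraries with its standard error, filled circles the log2 ratio within replicate number 1 and open squares that within replicate number 2. Il9r and Crlf2 lie above 1 by all 3 measures, and the signs within the replicate numbers differ for Il7r, Il2ra and Il2rg.

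**Figure D4:**
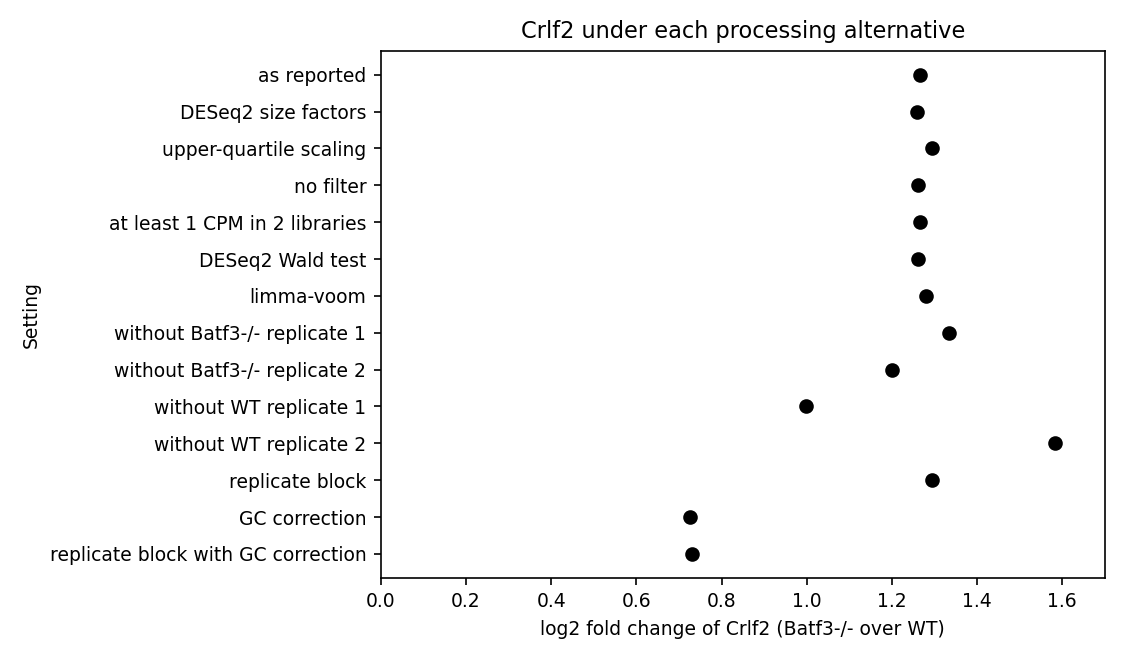
Log2 fold change of Crlf2 (Batf3-/- over WT) as reported and under each planned processing alternative; each point is 1 fit. The values run from 0.73 with the GC correction to 1.58 without WT replicate 2, and all are above 0.

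Among all tested named genes, those whose levels over the 4 libraries ran most like Crlf2 were Cdc42bpa, Galnt2, Gfra1, Erf and Hic1. Likeness was the Euclidean distance between log2 CPM profiles centred on each gene's mean, over 4 libraries and with no test. The distances were 0.156, 0.165, 0.226, 0.262 and 0.291 log2 units in that order. Their longest transcripts are 44.9%, 55.9%, 49.7%, 59.7% and 64.7% GC in that order, and a shared cause was not tested. How far each of these genes lies from Batf3 is not given here. Gfra1 was low, with 50 and 26 counts in Batf3-/- and 12 and 26 counts in WT libraries. Cdc42bpa, a kinase gene, had 9.60 and 10.6 CPM in Batf3-/- cells and 3.39 and 4.43 CPM in WT cells, from fractional counts. Hic1, a transcriptional repressor gene, had 19.6 and 18.9 CPM in Batf3-/- cells and 5.79 and 11.1 CPM in WT cells. No other member was near: Il2rb was the closest, at 1.07, with 1459 of 11208 genes nearer to Crlf2.

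The ligands of these receptors fell into those the cultures made and those they did not. Il7 and Il15 were at 0 in all 4 libraries, and Tslp had 2 and 0 counts in Batf3-/- and 0 and 3 counts in WT libraries, none above the floor of 3. Of the 8 ligand genes, 5 were tested and 0 passed in either direction (edgeR; 1 had an unadjusted p under 0.05, and DESeq2 and limma-voom also called 0). Their median log2 fold change was -0.46, beside -0.01 for all tested genes. Il9 had 1739 and 1442 CPM per kb in Batf3-/- cells and 1825 and 2909 in WT cells, so the ligand was abundant in cultures in which its receptor gene Il9r reached at most 0.393 CPM per kb. The log2 fold change of Il9 was -0.57 (SE 0.228, adjusted p = 0.898, edgeR), with log2 ratios of -0.07 and -1.01 within replicate numbers 1 and 2. Without WT replicate 1 it was -0.88 and passed the threshold.

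Il13, with 372 and 274 CPM per kb in Batf3-/- cells and 164 and 345 in WT cells, likewise exceeded Il13ra1. Il21 was present beside its receptor, with 18.3 and 24.2 CPM per kb in Batf3-/- cells and 30.9 and 20.3 in WT cells. Il2, the growth factor of activated T cells, was low, with 4.23 and 2.15 CPM in Batf3-/- cells and 5.67 and 4.70 CPM in WT cells from fractional counts (log2 fold change -0.63, SE 0.336, adjusted p = 0.958, edgeR). Its log2 ratios within replicate numbers 1 and 2 were -0.42 and -1.12.

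Downstream of the receptors, no JAK kinase or STAT factor passed. All 11 were tested, 6 positive and 5 negative, with a median log2 fold change of 0.02; edgeR, DESeq2 and limma-voom called 0, and before adjustment edgeR gave 0 of them a p under 0.05. Jak3, the kinase bound by the gamma chain, had 457 and 506 CPM in Batf3-/- cells and 372 and 365 CPM in WT cells (log2 fold change 0.39, SE 0.190, adjusted p = 0.958, edgeR), with log2 ratios of 0.30 and 0.47 within replicate numbers 1 and 2. Of 14 tested adaptors and kinases, 0 passed in edgeR, DESeq2 or limma-voom and 1 had an unadjusted p under 0.05; the log2 fold change of the adaptor gene Irs2 was 0.50 (SE 0.230) and that of the low Src-family kinase gene Lyn -0.76 (SE 0.609). Within replicate numbers 1 and 2 the log2 ratios were 0.66 and 0.40 for Irs2 and -0.60 and -1.12 for Lyn. Without WT replicate 2 Irs2 stood at 0.89 and passed.

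Of 19 negative regulators of these pathways, all tested, 1 passed as higher and 0 as lower in edgeR, beside 0.0824% and 0.0494% of all tested genes; 12 log2 fold changes were positive and 7 negative, and before adjustment 2 had a p under 0.05. The gene that rose was Socs1, whose product binds and inhibits JAK kinases: it had 156 and 137 CPM in Batf3-/- cells and 58.3 and 79.2 CPM in WT cells (log2 fold change 1.09, SE 0.200, adjusted p = 0.0296, edgeR). Within replicate numbers 1 and 2 its log2 ratios were 1.42 and 0.79. It missed the threshold without Batf3-/- replicate 1, after the GC correction and with the genes near Batf3 left out. The list's median was 0.06. Cish, a STAT5-induced inhibitor, had 525 and 515 CPM in Batf3-/- cells and 418 and 465 CPM in WT cells without passing; it is named beside Socs1 after its values were seen.

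Of 17 tested target genes of STAT5 and STAT6 signalling, 0 passed in edgeR, DESeq2 or limma-voom; before adjustment, edgeR gave 2 of them a p under 0.05. The log2 fold changes were positive for 14 and negative for 3, with a median of 0.28 that was 0.39 within replicate number 1 and 0.10 within replicate number 2. For 10 of them both Batf3-/- libraries lay above both WT libraries, and for 1 below, against 18.2% and 15.6% of all tested genes. Counted the same way, 7 of 19 negative regulators lay above and 2 below, and 8 and 2 of 19 other receptor chains. It was 1 and 1 of 11 JAK and STAT genes, and 2 and 2 of 14 adaptors and kinases. Of 5 ligands, 0 lay above and 2 below. Gfi1, a zinc finger repressor gene, had 109 and 83.5 CPM in Batf3-/- cells and 62.8 and 77.7 CPM in WT cells (log2 fold change 0.46, SE 0.199), and Pim1, a survival kinase gene, had a log2 fold change of 0.41 (SE 0.189). Within replicate numbers 1 and 2 the log2 ratios were 0.80 and 0.10 for Gfi1 and 0.54 and 0.29 for Pim1.

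Of 35 other type I and type II cytokine receptor chains listed, 19 were tested and 0 passed in edgeR, DESeq2 or limma-voom, with 1 at an unadjusted p under 0.05 in edgeR. Their median log2 fold change was 0.11, with 13 positive and 6 negative. Il3ra, the interleukin 3 receptor alpha chain, had 11.3 and 10.4 CPM in Batf3-/- cells and 5.49 and 7.51 CPM in WT cells (log2 fold change 0.74, SE 0.262, adjusted p = 0.814, edgeR); its longest transcript is 60.7% GC. The log2 ratios of Il3ra within replicate numbers 1 and 2 were 1.04 and 0.47, and without WT replicate 2 it stood at 0.99 and passed. Prlr, the prolactin receptor gene, had a log2 fold change of 0.61 (SE 0.607) from 17 and 25 counts in Batf3-/- and 16 and 15 counts in WT libraries. Its direction differed between the replicate numbers, with log2 ratios of -0.35 in the first and 1.53 in the second.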

How the data were processed

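The deposited values are expected counts per gene, which may be fractional. Per the submitters' processing notes, reads were handled with STAR 2.5.0, RSEM 1.2.25 and the GRCm38 build; no annotation release or strand setting is stated, so genes that overlap are uncertain. Per the labels' protocols, libraries were stranded and poly-A selected. No label says that replicates are separate mice or cultures, so each p-value reflects the spread of these libraries alone; replicates of a genotype differed in Xist. The 92 spike-in entries were 0 and left out.

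Rounded counts were analysed in edgeR 4.0.16 under R 4.3.3: filterByExpr (minimum count 10, total 15), TMM scaling, and a robust two-sided quasi-likelihood test of genotype, with Benjamini-Hochberg adjustment at 0.05 over 12135 genes. Depth is given with the results. Ratios within replicate numbers use a prior count of 0.5, and floors of 3 counts cover counting error only. Replicates differed far beyond sampling noise (chi-square per degree of freedom 22.8 in Batf3-/-, 63.0 in WT). Lengths, GC content and 1-based coordinates came from GENCODE M21 (GRCm38), which held 12105 of the tested genes; upstream sequences came from RefSeq. Alternatives were DESeq2 1.42.0, limma 3.58.1 (voom), other scalings and filters, left-out libraries, a replicate block and a GC correction (offsets from a loess trend per library). The edgeR fits with and without the block, DESeq2 and voom were tested on simulated data; the other alternatives were not.

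The named genes are all members, Batf3, the called genes of each list or its 2 largest changes, and the 5 genes nearest to Crlf2; a gene this rule names is not reported here. Other ligands, single markers and Cish were picked after their values were known. Members and lists were chosen with earlier results of these data known.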

Additional observations from a re-analysis of the deposited data

How the results depend on the processing

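The log2 fold change of Crlf2 stayed positive under all 14 alternatives, from 0.73 to 1.58, and passed the threshold in 10. In edgeR's quasi-likelihood test it missed it without Batf3-/- replicate 1 (adjusted p = 0.0678), without Batf3-/- replicate 2 (0.0842), with the GC correction (0.444) and with genes within 25 Mb of Batf3 left out of the adjustment (0.0702, an alternative added after seeing the data); over all alternatives it ranged from 6.79e-07 to 0.444. No other member passed under any alternative; Il7r changed sign in 4, Il2ra in 3, Il21r in 2 and Il2rg in 1, and Il9r had no value under the filter of 1 CPM in 2 libraries. Over all genes edgeR called 10 higher and 6 lower. DESeq2 called 21 higher and 8 lower, and edgeR without the genes near Batf3 called 0 and 0, with 557 of 11989 at an unadjusted p under 0.05. Leaving out 1 library gave 11 to 301 higher and 7 to 252 lower genes, the most without WT replicate 2; WT replicate 1 left out gave 38 and 24, and Batf3-/- replicate 2 left out 23 and 15. The group with 1 library left was assumed to vary like the other.

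The replicate block gave 81 higher and 31 lower genes, and 53 and 33 together with the GC correction. Titles of same-numbered libraries share a prefix across genotypes, and Xist splits by replicate number. The labels do not say what the prefix or the number marks, and the main fit leaves this possible pairing out. The deviations of same-numbered libraries correlated at 0.105. In the block fit the spread of most genes was treated as known. Over the pathway lists, the 1 higher gene, Socs1, became 2 with the replicate block (Socs3 added), 0 with the GC correction and 0 without the genes near Batf3. Leaving out 1 library gave 0 to 8 higher and 0 to 1 lower genes: 0 higher without Batf3-/- replicate 1, 1 lower (Il9) without WT replicate 1, and 8 higher and 1 lower (Il4) without WT replicate 2.

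By median transcript length or coding length, 4 members each changed place in the order of levels: Il2rb with Il2rg and Il21r with Il4ra by the first, Il21r with Il4ra and Crlf2 with Il7r by the second. Of the 5 genes nearest to Crlf2, 3 were shared when the prior count was 2. The causes of these changes were not tested. Depth limits Il9r and Il13ra1 most.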
